A study of Mus musculus with 24 samples.

Results

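Gfap and 4 genes that lie beside it or span it on mouse chromosome 11 (Fam187a, Ccdc103, Gm26668 and Eftud2) were followed across 24 sequencing libraries. These 5 genes were chosen, out of 33000 in the count table, for their place at the Gfap locus and for how Gfap and Fam187a differed between the genotypes, so their genotype differences are given as descriptions, without a test. The libraries came from the frontal cortex of 6 mice aged 3 months: 3 wild-type (WT) C57BL/6 animals (WT1 to WT3) and 3 animals homozygous for the GFAP-IL6 transgene (HOM1 to HOM3), in which the Gfap promoter drives the cytokine interleukin-6 in astrocytes. Every mouse gave 4 libraries made with 3'Pool-seq, a method that reads only the 3' end of polyadenylated transcripts. These combined 2 ng or 1 ng of cDNA in tagmentation (the step in which a transposase cuts cDNA and adds adapters) with 2 sets, A and B, whose difference the labels do not state. The mouse was the replicate, and the 4 libraries of a mouse were summed for the genotype comparison.

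GFAP is the intermediate filament protein that marks astrocytes, and its gene is a classic marker of reactive astrocytes. Cytokines of the interleukin-6 family signal through gp130 to the transcription factor STAT3, which binds elements of the form TTCNNNGAA, and the Gfap promoter is a known target of this pathway. Among the neighbours, Ccdc103 encodes a protein needed to attach dynein arms in motile cilia, Eftud2 encodes a GTPase of the U5 small nuclear ribonucleoprotein in the spliceosome, Fam187a encodes a protein of little known function, and Gm26668 is annotated as a long intergenic non-coding RNA.

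The genes are packed closely (GENCODE vM21 annotation of GRCm38, the same coordinates as mm10). Gfap (ENSMUSG00000020932.12) lies on the minus strand of chromosome 11 from 102887336 to 102900912. Fam187a (ENSMUSG00000075510.3) is a single exon on the plus strand from 102885169 to 102886731, so the 2 genes converge and their 3' ends are separated by 604 bp. Ccdc103 (ENSMUSG00000020930.7), on the plus strand from 102881204 to 102885216, runs into Fam187a, and the 2 share 48 bp of exon on the same strand. Eftud2 (ENSMUSG00000020929.12) is on the minus strand from 102838473 to 102880985 and starts 218 bp from the start of Ccdc103. Gm26668 (ENSMUSG00000097410.1), on the plus strand, spans all of Gfap, Fam187a and Ccdc103 from 102863337 to 103075903, but its 2 exons share 0 bp with the exons of those 3 genes. The first of these exons lies across part of Eftud2 and shares 2261 bp with exons of Eftud2 over all its transcripts, of which 174 nt are in Eftud2-201. The authors counted on an earlier GENCODE release. Their gene lengths were 4072 nt for Gfap and 3342 nt for Eftud2, against 4218 and 8395 bp of merged vM21 exons. Some exons, overlaps and gene ends given here may thus differ from the counted features. No exon of Gfap overlapped an exon of any other member.

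Because 3'Pool-seq counts come from transcript ends, the last bases of the main transcripts are shown, in the sense of the transcript, with the polyadenylation hexamer AATAAA in capitals where it occurs. Gfap-201 ends in the last exon of the gene (chr11:102887336-102888721, nearly all 3' UTR), while Gfap-202 ends further upstream, at 102890166. The segments are chr11:102887336-102887365 and chr11:102890168-102890197 on the minus strand, and chr11:102886702-102886731 and chr11:102885187-102885216 on the plus strand, and that of Gfap-202 stops 2 bases short of its annotated end so that the hexamer is included.
Gfap-201: agaAATAAAgacatgtgccatagacttcca
Gfap-202: AATAAAgctttatgctccctgctcttcatt
Fam187a-201: gcgacagggtgatgagcaagtctgttagtt
Ccdc103-201: tgagctgggAATAAAtcacctcgcccttgg
The hexamer began 27 bases before the annotated end of Gfap-201, 32 before that of Gfap-202 and 21 before that of Ccdc103-201. The last 50 bases of Fam187a-201, of Eftud2-201 and of Gm26668-201 held neither AATAAA nor ATTAAA, whereas 50.2% of 58797 protein-coding transcripts held at least 1 of these.

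Upstream sequence was given for 2 of the 5 genes in the RefSeq table (GRCm38.p6), Gfap and Ccdc103. The Gfap segment, chr11:102897171-102897450 on the minus strand, is shown because this promoter drives the transgene. It holds the 250 bases before the RefSeq start at 102897200 and the 30 bases from it, with a match to the STAT element TTCNNNGAA in capitals.
Gfap promoter: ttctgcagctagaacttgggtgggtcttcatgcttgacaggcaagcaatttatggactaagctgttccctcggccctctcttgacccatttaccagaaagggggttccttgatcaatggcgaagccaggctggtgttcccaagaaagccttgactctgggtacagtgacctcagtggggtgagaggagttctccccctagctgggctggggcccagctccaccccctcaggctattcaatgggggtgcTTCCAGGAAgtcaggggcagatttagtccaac
The match lay across the RefSeq start, from 2 bases before it to 6 bases after it, and upstream of the start of Gfap-201 at 102897131. A match on either strand was present in 7.83% of 32851 RefSeq promoter segments of this length. The Ccdc103 segment held no match. Neither segment held AP-1 (TGANTCA), NFI (by name) or TATAAA matches, which were found on either strand in 7.46%, 0.0365% and 13.1% of the segments. A match is a description of letters, not of binding. Bases outside the segments, among them those next to the start of Gfap-201, were not searched.

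The libraries held 1524165 to 12256374 counts (median 4169390), or 7852743 to 37582644 per mouse. Levels are given as CPM, a gene's count scaled to library size with the TMM factors of edgeR, which ranged from 0.96 to 1.04 over libraries. The transgene's own product was checked first. Il6 had 5, 3 and 0 counts in WT1, WT2 and WT3 and 30, 33 and 163 counts in HOM1, HOM2 and HOM3. In the same order these were 0.260, 0.166 and 0 CPM in WT and 3.16, 1.58 and 4.23 CPM in GFAP-IL6 mice. The genotypes did not overlap. For WT3, a count of 0 allows a level of up to 0.382 CPM, from a limit of 3 counts and for counting error only. Reads of the transgene and of the endogenous genes cannot be told apart in these counts, for Il6 or for any transgene sequence that came from the Gfap locus. The construct's extent is not described in the sources used here.

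Gfap was at 20.3, 23.5 and 16.0 CPM in WT1, WT2 and WT3 and at 80.8, 101.8 and 146.3 CPM in HOM1, HOM2 and HOM3. All GFAP-IL6 mice lay above all WT mice, and HOM3 was the highest and WT3 the lowest. The means were 19.95 ± 3.78 CPM in WT and 109.6 ± 33.4 CPM in GFAP-IL6 (SD, n = 3 mice each), a log2 fold change of 2.44 (SE 0.185), or 5.43-fold. The spread among GFAP-IL6 mice, with a coefficient of variation of 30.5%, was wider than the 18.9% among WT mice. Gfap ranked 36 by size of log2 fold change among the 14621 genes tested in the summed libraries.

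The higher level of Gfap was present in each library set. Over 12 WT libraries Gfap ran from 14.3 to 25.2 CPM (median 20.2), and over 12 GFAP-IL6 libraries from 70.8 to 166.2 CPM (median 99.3). The ranges did not overlap in any of the 4 sets, and the log2 fold change was 2.42 with either amount in set A, 2.497 with 2 ng in set B and 2.45 with 1 ng in set B. These sets reuse the same 6 mice, so they repeat the library preparation and not the animals.

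**Figure D1:**
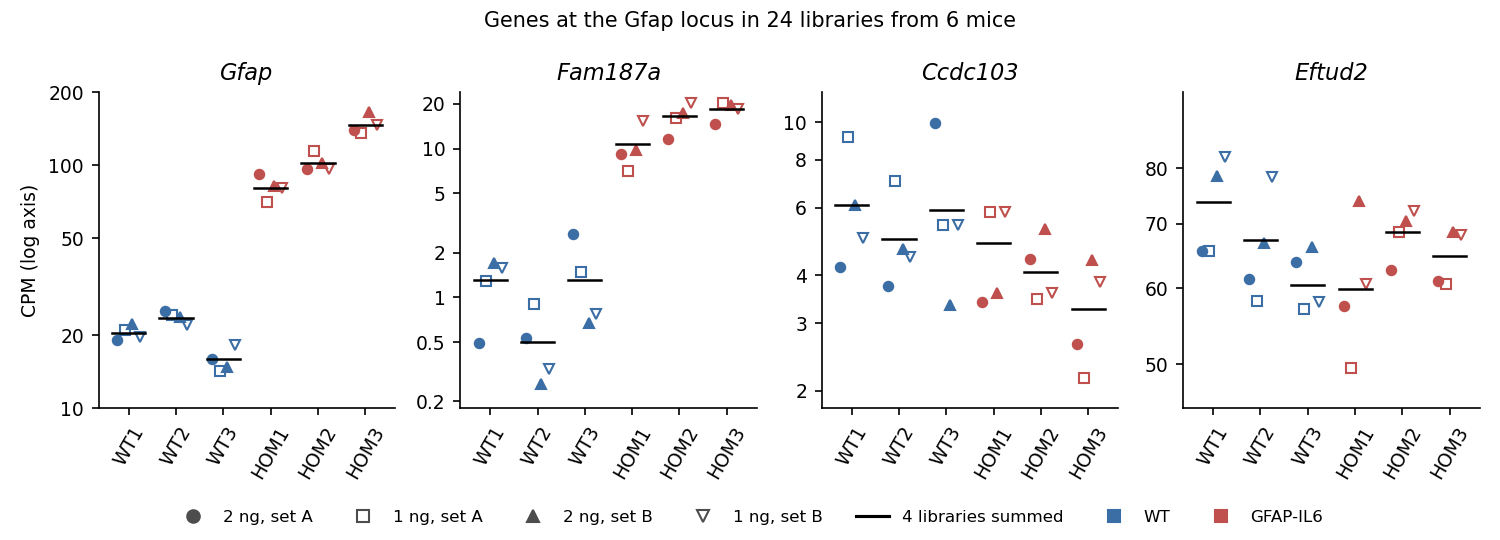
CPM (log axis, a separate range in each panel) of Gfap, Fam187a, Ccdc103 and Eftud2 in each of 24 libraries, by mouse; symbols mark the cDNA amount and set, colours the genotype and black bars the 4 libraries of a mouse summed. Gfap and Fam187a libraries of the 2 genotypes do not overlap, while those of Ccdc103 and Eftud2 do.

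Fam187a, the neighbour whose 3' end faces that of Gfap, differed more. It had 25, 9 and 10 counts in WT1, WT2 and WT3 and 102, 346 and 707 counts in HOM1, HOM2 and HOM3. That is 1.30, 0.498 and 1.31 CPM in WT against 10.8, 16.6 and 18.3 CPM in GFAP-IL6 mice. The 2 genotypes did not overlap, and HOM1 was the lowest of its group. The means were 1.04 ± 0.466 and 15.2 ± 3.97 CPM (SD, n = 3 mice each), and the log2 fold change was 3.97 (SE 0.294), or 15.7-fold, rank 7 of 14621 by size.

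In single libraries the WT level of Fam187a was close to the limit of counting. It had 3 or fewer counts in 7 of 12 WT libraries, none was at 0, and the WT range was 0.260 to 2.66 CPM (median 0.840). The 12 GFAP-IL6 libraries had 17 to 229 counts, or 7.08 to 20.3 CPM (median 15.6), again without overlap in any set. Log2 fold changes ran from 3.70 with 1 ng in set A to 4.26 with 1 ng in set B, with SEs of 0.364 to 0.458. This range of fold changes was wider than that of Gfap, whose SEs in the same sets were 0.172 to 0.203.

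For every 100 Gfap counts, WT1, WT2 and WT3 had 6.39, 2.12 and 8.20 Fam187a counts, and HOM1, HOM2 and HOM3 had 13.3, 16.3 and 12.5. The ratio was higher in each GFAP-IL6 mouse than in each WT mouse, which restates the larger genotype difference of Fam187a. Expressed as a share of the counts of both genes, Fam187a took 2.07% in WT2 (95% Wilson interval 1.09 to 3.89%) and 7.58% in WT3 (4.17 to 13.4%), the lowest and highest WT mice. The lowest GFAP-IL6 share was 11.1% in HOM3 (10.4 to 11.9%). The WT3 interval, from 10 Fam187a counts, overlapped those of the 3 GFAP-IL6 mice. These intervals cover counting error only. Per library the ratio reached 16.7 in WT, in a WT3 library with 4 Fam187a counts, and had a median of 12.3 in GFAP-IL6 mice, so single libraries did overlap.

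**Figure D2:**
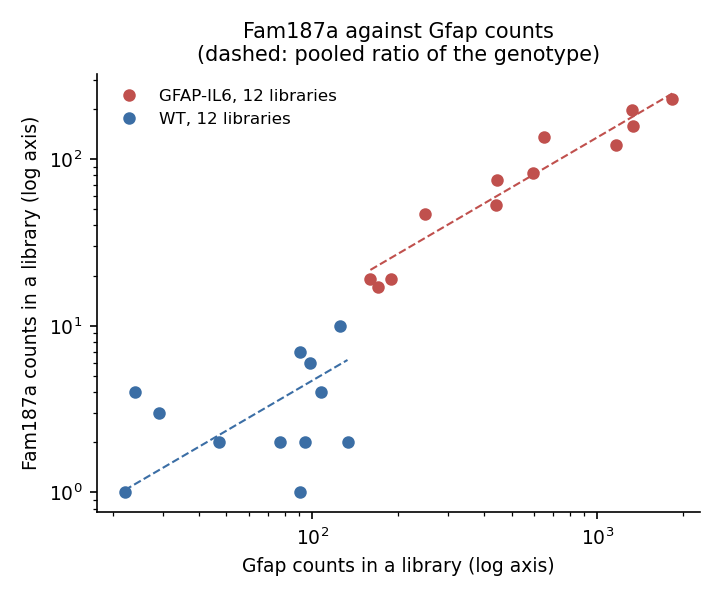
Fam187a counts against Gfap counts (both log axes) in each library; points are coloured by genotype and dashed lines show the pooled ratio of each genotype, 4.69 and 13.5 Fam187a counts per 100 Gfap counts in WT and GFAP-IL6. The WT points scatter widely, and 7 of 12 rest on 3 or fewer Fam187a counts.

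The 2 genes lie on opposite strands and share no exon, but whether the authors' counting used strand is not stated. Without strand, reads from the opposite strand that reach an exon cannot be told apart from the gene's own. Across the table, 312 protein-coding genes have the last 300 nt of every transcript covered by exons of the other strand, and their median was 824.5 total counts, against 432 for 19642 genes with no such overlap, so genes whose ends lie over the other strand did not have lower counts. Counting Gfap, Fam187a, Ccdc103 and Gm26668 as 1 feature gave 26.7 ± 3.07 CPM in WT and 128.9 ± 36.2 CPM in GFAP-IL6 mice (SD, n = 3 each).

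Ccdc103 is the next gene along and shares its last 48 bp with Fam187a on the same strand. It was at 6.08, 4.98 and 5.90 CPM in WT1, WT2 and WT3 and at 4.85, 4.07 and 3.27 CPM in HOM1, HOM2 and HOM3. The summed values of the genotypes did not overlap, but WT2 and HOM1 were close together. Of 28 other tested genes within 500 kb of Gfap, 0 were apart with higher and 2 with lower values in GFAP-IL6 mice. The share over all genes was not counted, so nothing is read from this gap. The Ccdc103 means were 5.66 ± 0.590 and 4.06 ± 0.791 CPM (SD, n = 3 each), with a log2 fold change of -0.51 (SE 0.218). Single libraries had 5 to 48 counts, the genotypes overlapped in all 4 sets, and the log2 fold change in a set ran from -1.13 with 1 ng in set A to -0.14 with 2 ng in set B. These single-set values moved with 1 mouse left out: the -0.14 became 0.09 without WT1, the -1.13 became -1.44 without HOM1 and -0.75 without HOM3, and the -0.63 with 2 ng in set A became -0.22 without WT3 and -0.88 without WT2. Fam187a had at most 22.2 counts per 100 Ccdc103 counts in the WT mice and 222 to 561 in the GFAP-IL6 mice.

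Motile cilia are found on ependymal cells. Choroid plexus cells also carry cilia, so the markers of both cell types are given beside Ccdc103. The summed level of 6 ependymal markers was 14.1 to 36.2 CPM in WT and 21.8 to 25.2 CPM in GFAP-IL6 mice. The summed level of 6 choroid plexus markers was 110 to 165 CPM in WT1 and WT2 but 4091 CPM in WT3, and 83.2 to 758 CPM in GFAP-IL6 mice. None of these 12 genes was at 0 in all mice or passed the test. Without WT3 the log2 fold change of Ccdc103 was -0.49, within the -0.63 to -0.35 seen when any 1 mouse was left out. The part of these cells in the Ccdc103 values was not tested.

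Eftud2 had 73.8, 67.4 and 60.5 CPM in WT1, WT2 and WT3 and 59.9, 68.6 and 64.8 CPM in HOM1, HOM2 and HOM3. The genotypes overlapped in the summed mice and in each set. The means were 67.2 ± 6.66 and 64.4 ± 4.38 CPM (SD, n = 3 each), and the log2 fold change was -0.06 (SE 0.0969), with -0.13 to 0.00 in single sets. Gm26668, although it spans the locus, had 2 counts in all 24 libraries, 1 in WT2 and 1 in HOM3, both with 1 ng in set B, and was too low to be tested. With 3 counts as the limit, its level in HOM3, the deepest mouse, could not be told apart from 0 below 0.0798 CPM.

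A gene was called different between genotypes at an adjusted p below 0.05 (edgeR quasi-likelihood test, Benjamini-Hochberg over all genes tested) and an absolute log2 fold change above 1. In the summed libraries 1.23% of 14621 genes were called, 176 of 180 of them higher in GFAP-IL6 mice. Gfap and Fam187a passed these limits, which is how they were selected, and Ccdc103 and Eftud2 did not. The same 2 of 4 tested members passed in each set, where the share of genes called was 0.681% with 2 ng in set A, 0.774% with 1 ng in set A, 0.744% with 2 ng in set B and 0.755% with 1 ng in set B. Nothing is read from this count, since the selection used the same contrast.

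The wider neighbourhood was not selected on its values and could be tested. Within 500 kb on each side of Gfap lie 39 further genes, of which 28 had enough counts. By edgeR 0 of the 28 were called, against 1.23% of all genes, and DESeq2 also called 0. Their log2 fold changes ran from -1.37 to 0.59 with a median of 0.00, beside a median of -0.01 over all genes, and 15 were higher and 13 lower in GFAP-IL6 mice. At an unadjusted p below 0.05 there were 3, a share near that over all genes (1279 of 14621): Grn, Spata32 and Arhgap27os2, named here after their values were seen. Grn, which encodes the lysosomal protein progranulin, was at 65.4 ± 5.45 CPM in WT and 97.8 ± 25.3 CPM in GFAP-IL6 mice (log2 fold change 0.59, adjusted p = 0.0585 in edgeR). The adjusted p of Grn ranged from 3.09e-07 to 0.392 over 12 other settings, and its log2 fold change stayed below 1 in each.

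The tested genes nearest to the members had log2 fold changes near 0. Beyond Eftud2 these were Higd1b (0.00, SE 0.145), Gjc1 (0.25, SE 0.345), Adam11 (0.10, SE 0.113) and Ccdc43 (0.09, SE 0.116). On the other side of Gfap they were C1ql1 (-0.01, SE 0.413), 2410004I01Rik (-0.04, SE 0.473), Dcakd (0.00, SE 0.0986) and Nmt1 (-0.02, SE 0.104). All had an adjusted p of at least 0.890 in edgeR. Kif18b, which lies 4.62 kb from Gfap and is its nearest neighbour on that side, had 10 counts in all and was not tested. Gjc1, C1ql1 and 2410004I01Rik were at 0.732 to 1.88 CPM, and their large SEs leave room for changes of moderate size.

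**Figure D3:**
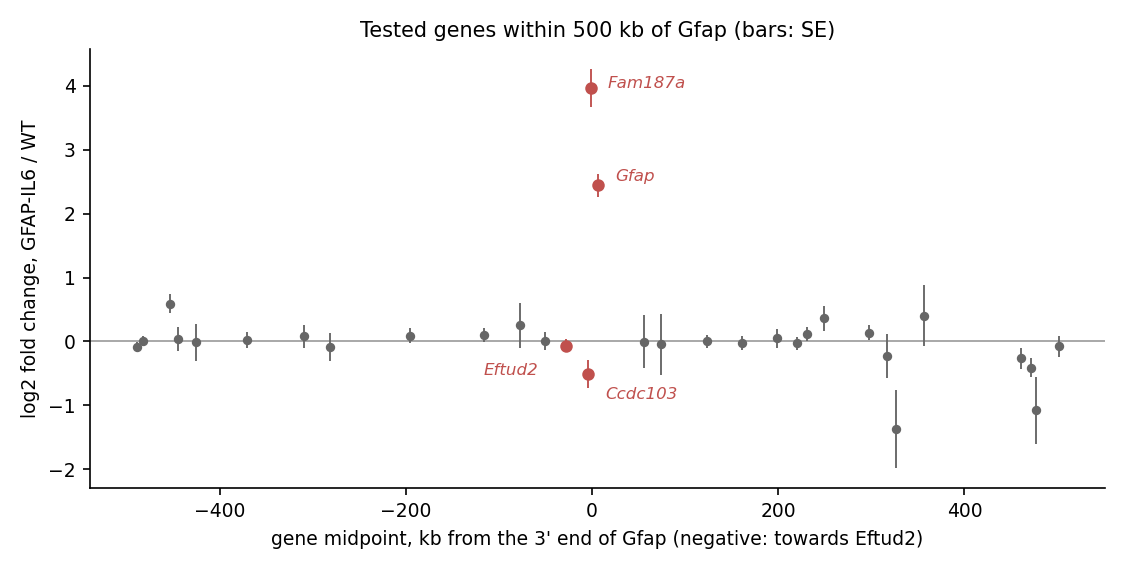
Log2 fold change (GFAP-IL6 over WT, summed libraries) of the tested genes within 500 kb of Gfap, against the distance of the gene's midpoint from the 3' end of Gfap in kb; bars are SEs and members are named and red. Fam187a at 3.97 and Gfap at 2.44 stand above the 28 other genes, which lie between -1.37 and 0.59.

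Whether the members depended on library preparation was tested within mice, a measure that did not choose them. In 3'Pool-seq samples are pooled before tagmentation, so libraries of different mice may share a reaction. The p-values and intervals of these comparisons measure the spread between mice and not that between reactions. Between 2 ng and 1 ng of cDNA, 33.3% of 13389 genes were called at an adjusted p below 0.05, and 0 of the 4 tested members were. Gfap changed by a log2 value of 0.03 (95% interval -0.05 to 0.12, adjusted p = 0.619 in edgeR), and it was higher with 2 ng in 4 of 6 mice. Eftud2 changed by -0.03 (-0.12 to 0.05) and Ccdc103 by -0.10 (-0.42 to 0.23). The intervals of Gfap and Eftud2 are narrow, and that of Ccdc103 is wide. The estimate for Fam187a was -0.27 (-0.51 to -0.02, unadjusted p = 0.0331, adjusted p = 0.0876 in edgeR), with lower values with 2 ng in 5 of 6 mice, and it did not pass.

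Between set A and set B, 23.3% of 13581 genes were called, and among the members 1 of 4, Eftud2, was. Eftud2 had 572, 486 and 212 counts in set A and 847, 731 and 249 in set B for WT1, WT2 and WT3, and 237, 641 and 1097 against 331, 790 and 1402 for HOM1, HOM2 and HOM3. Relative to library size it was lower in set A in 6 of 6 mice, by a log2 value of -0.21 (SE 0.0532, 95% interval -0.32 to -0.11, adjusted p = 0.00103 in edgeR). With the mouse left out of the model and genotype in its place, the adjusted p was 0.0857 in edgeR at the same size of change. If the mice of a set shared a reaction, neither value covers the spread between reactions, and the 6 mice do not repeat the set. Gfap (-0.02, -0.14 to 0.09), Fam187a (-0.28, -0.60 to 0.04) and Ccdc103 (0.01, -0.38 to 0.41) did not pass. The intervals of Fam187a and Ccdc103 are wide, so a change of the size seen for Eftud2 was not detectable in them.

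The genotype difference itself was then compared between cDNA amounts and between sets with an interaction term. Of all genes 0.0% passed for cDNA amount and 0.0% for set in edgeR. At an unadjusted p below 0.05 there were 538 of 13961 and 597 of 14167, and DESeq2 called 0 in both. For Gfap the difference between amounts was 0.01 (95% interval -0.21 to 0.24) and between sets -0.05 (-0.31 to 0.20). For Fam187a they were -0.09 (-1.05 to 0.88) and -0.52 (-1.50 to 0.47), the latter from -1.66 (without WT1) to -0.13 (without WT3) with 1 mouse left out. For Ccdc103 the difference between sets was -0.77 (-1.54 to 0.00, unadjusted p = 0.0530, adjusted p = 0.998 in edgeR). The Gfap intervals are small beside its genotype difference of 2.44, while those of Fam187a and Ccdc103 are wide at this depth.

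**Figure D4:**
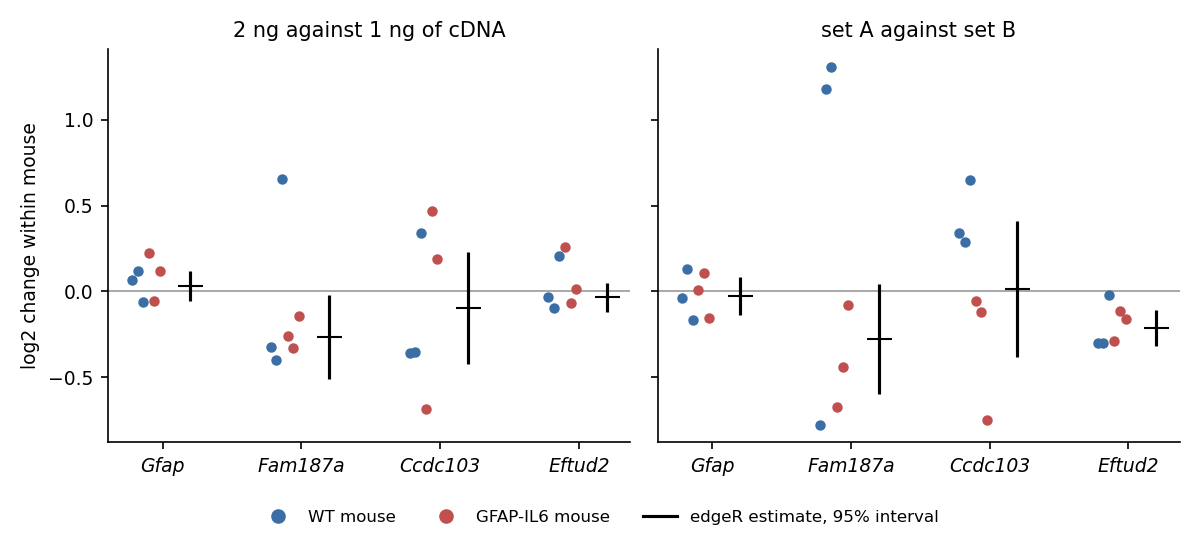
Log2 change within each mouse between 2 ng and 1 ng of cDNA (left) and between set A and set B (right) for the 4 tested members; points are mice coloured by genotype, and black bars are edgeR estimates with 95% intervals. Eftud2 is below 0 in 6 of 6 mice between sets, and the Fam187a and Ccdc103 points scatter more than those of Gfap and Eftud2.

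Genes related to each member were read from lists and called by the same limits. Of 15 tested genes for other intermediate filaments, 0 were called, with a median log2 fold change of 0.05. The values ran from -0.67 for Prph to 0.64 for Vim (SE 0.169, adjusted p = 0.0864 in edgeR). Vim was at 22.6 ± 3.25 CPM in WT and 34.8 ± 9.63 CPM in GFAP-IL6 mice. The most abundant, the neurofilament genes Nefl and Nefm, were at -0.01 and 0.17. Of 20 astrocyte genes other than Gfap 0 were called (median 0.11), although Atp1b2 had an adjusted p below 0.05 at a log2 fold change of 0.38. Aldoc, a glycolytic enzyme of astrocytes, was at 0.17 and Slc1a2, the glutamate transporter, at 0.11. Counts of 0 of 15 and 0 of 20 are near the 1.23% called over all genes.

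Of 25 tested reactive astrocyte genes 5 were called, all higher in GFAP-IL6 mice, beside 1.23% of all genes. The median was 0.64, beside -0.01 over all genes. This list, like the others, was chosen with earlier results of these data known, so its share is a description. Which cells made these transcripts was not tested. Lcn2, which encodes lipocalin-2, rose by a log2 value of 3.67 (SE 0.503, adjusted p = 0.000623 in edgeR), from 0.344 ± 0.106 to 4.15 ± 2.44 CPM. Osmr, the oncostatin M receptor of the interleukin-6 family, rose by 2.08, Gbp2, an interferon-induced GTPase, by 1.25, Aspg, an asparaginase, by 1.19 and Psmb8, a subunit of the immunoproteasome, by 1.11. The most abundant members of that list were S100a10, at -0.02, and the class I histocompatibility gene H2-D1, which had an adjusted p of 0.00156 (edgeR) at 0.63 and so missed the fold limit. Serpina3n (0.98), Hspb1 (0.87) and Cp (0.87) also had an adjusted p below 0.05 (edgeR) and missed that limit. Gbp2 was no longer called without WT2, without HOM2 or without HOM3 (adjusted p = 0.120 in edgeR), nor was Aspg without WT1 or without HOM3 (adjusted p = 0.171 in edgeR).

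Of 26 genes for regulators of the Gfap promoter 2 were called, beside 1.23% of all genes, and the median was 0.07. These were Osmr and Socs3, the feedback inhibitor of the interleukin-6 pathway. Stat3, at 0.49 (adjusted p = 0.0686 in edgeR), was not called. Nor were the gp130 gene Il6st (0.32), Il6ra (0.62), Jak1 (-0.09) and Jak2 (-0.00088). Socs3 was at 1.17 ± 0.136 CPM in WT and 3.36 ± 1.72 CPM in GFAP-IL6 mice (log2 fold change 1.62, adjusted p = 0.0329 in edgeR), but it was called in 7 of 12 other settings. It was lost with a replicate block and without WT1, WT2, HOM2 or HOM3 (adjusted p = 0.572 without HOM3). The most abundant, the nuclear factor I genes Nfix and Nfib, were at 0.08 and -0.10. None of 17 spliceosome partners of Eftud2 was called (median 0.00), with Snrpd3 and Snrpb, core proteins of the spliceosomal particles, at 0.01 and 0.06. None of 22 tested genes of dynein arms and motile cilia was called either (median -0.01), with Dnal1 at -0.07 and Lrrc6 at -0.16. At a background of 1.23%, counts of 0 in lists of this size say little. DESeq2 called as many list genes in all, 6, as edgeR did.

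Summed markers of 3 cell types were also apart between the genotypes, and their part in the Gfap values was not tested. How often such gaps occur over all genes was not counted. The summed level of 6 astrocyte markers was 2865 to 2963 CPM in WT and 3152 to 3374 CPM in GFAP-IL6 mice, without overlap, and 0 of 6 were called. That of 6 microglia markers was 356 to 402 against 573 to 727 CPM, with 1 of 6, Aif1, called, and that of 6 endothelial markers was 209 to 213 against 244 to 322 CPM, with 0 called. Neuron and oligodendrocyte sums overlapped. Aldoc was the largest part of the astrocyte sum, at a mean of 1672 CPM in WT and 1886 CPM in GFAP-IL6 mice. The mean of Aldh1l1 was lower in GFAP-IL6 mice (49.7 against 53.3 CPM), and those of the other astrocyte markers were higher. Per 1000 CPM of astrocyte markers, Gfap was at 6.91, 8.21 and 5.40 CPM in WT1, WT2 and WT3 and at 23.96, 32.3 and 44.6 CPM in HOM1, HOM2 and HOM3. The marker sums differ far less than Gfap does, so nothing is read from this scale. In bulk tissue, fewer or more cells of a type and less or more RNA per cell cannot be told apart.

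The genes whose pattern over the 6 mice was most like that of Gfap were Ifi30, Lrg1, Treml2, Lyz2 and Cd72. This measure uses the same values as the genotype comparison that chose Gfap. It therefore mostly finds genes with a genotype difference like that of Gfap, and all of those named were called. Shared variation within a genotype was not tested. Likeness was the root mean square difference of log2 CPM after centring each gene over the 6 mice, and it was 0.196, 0.238, 0.243, 0.295 and 0.297 for these genes. Ifi30, a lysosomal thiol reductase, was at 1.66 to 2.49 CPM in WT and 8.64 to 14.7 CPM in GFAP-IL6 mice. Lrg1, a secreted leucine-rich glycoprotein, was at 10.9 to 15.8 against 65.6 to 89.9 CPM, and Lyz2, the lysozyme of myeloid cells, at 16.6 to 19.0 against 53.8 to 92.4 CPM. Treml2, a myeloid receptor, was at 0.00 to 0.104 CPM in WT and 1.58 to 2.33 CPM in GFAP-IL6 mice, and its log2 fold change of 4.70 was farther from that of Gfap than the 3.97 of Fam187a. The measure adds 0.5 CPM to each value, which shrinks differences of genes near 0 such as Treml2. Fam187a, at 0.653, ranked 100 among the genes tested by this measure.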

How the data were processed

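The deposited table holds raw read counts per gene for 24 libraries. Per the study's methods the authors trimmed polyA, aligned to mm10 with STAR (version 2.4 in the submitters' processing notes) and counted with featureCounts on genes of an earlier GENCODE release than vM21. The strand setting is not given in the sources used here. The notes list another genome build, hg19, for these mouse samples. Column totals gave the depth. The 4 libraries of a mouse were summed for the genotype comparison. Genes kept by filterByExpr were tested with edgeR 4.0.16 (TMM, quasi-likelihood; R 4.3.3); DESeq2 1.42.0 was an alternative. Comparisons within mice had the mouse as a block, and interactions used the 6 mice. The code was tested on simulated data. Libraries of a mouse share RNA, and libraries of a set may share a reaction. Intervals are 95% normal intervals from the SE. Annotation and transcript ends were GENCODE vM21, promoters RefSeq. Members and gene lists were chosen with earlier results of these data known. Genes named were all members, Il6, the 4 tested genes nearest on each side, up to 4 called and the 2 most abundant per list, and the 5 most like Gfap (pseudocount 0.5 CPM). Grn, Spata32, Arhgap27os2, Atp1b2, Psmb8, Kif18b, Aif1, Aldh1l1, Serpina3n, Hspb1 and Cp were added after their values were seen. So were Vim, Prph, Stat3, Il6st, Il6ra, Jak1 and Jak2.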

Additional observations from a re-analysis of the deposited data

Results flagged for a closer look

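Among 8 sets of 6 within-mouse values (4 members, cDNA amount and set), 1 had a mouse far from the other 5. For Fam187a between 2 ng and 1 ng, WT3 was at 0.66 in log2, while the next highest mouse, HOM3, was at -0.15. The WT3 value rests on 5 counts with 2 ng and 5 counts with 1 ng. Chance gives such a flag in about 1 in 20 sets of values. No genotype difference of a member differed between amounts or sets by the interaction test.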

How the results depend on the processing

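In the summed libraries, 12 other settings were tried for the genotype comparison. Leaving out 1 mouse at a time, Gfap ranged from 2.17 to 2.61, Fam187a from 3.57 to 4.35, Ccdc103 from -0.63 to -0.35 and Eftud2 from -0.12 to 0.01 in log2 fold change, and the other settings moved them less than the spread between mice. Fam187a could not be fitted with at least 10 counts in every mouse, since WT2 had 9. The number of genes called was 180, and 106 to 201 with 1 mouse left out, the lowest without HOM3, 245 with no filter on low counts and 138 with at least 10 counts in every mouse; list genes called were 6, and 3 to 8. With 1 mouse left out, the calls in single sets ranged from 46 to 102 around 83 (2 ng, set A), from 52 to 115 around 96 (1 ng, set A), from 45 to 114 around 91 (2 ng, set B) and from 45 to 113 around 98 (1 ng, set B), the lowest each time without HOM3; with 1 ng in set B, 60 were called without HOM2. With no filter on low counts they were 120, 135, 122 and 142 in the same order. Fam187a reached 5.34 (2 ng, set B) and 5.22 (1 ng, set B) without WT1. The interaction with cDNA amount had 0 calls, and 1 (mt-Co1, no member) with no filter on low counts, with 0 to 1 when 1 mouse was left out.

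Same-numbered WT and GFAP-IL6 mice are different animals, and their deviations correlated at -0.05, -0.03 and -0.04, so the numbers did not pair them. A replicate block on these numbers gave 149 calls, and Socs3 was no longer called (adjusted p = 0.0728, edgeR). Without the mouse block, with genotype in the model, calls fell from 4462 to 1714 for cDNA amount and from 3169 to 1015 for set, where Eftud2 was at -0.21 with an adjusted p of 0.0857 (edgeR). No other tested call of a member changed. Depth limits Fam187a, Ccdc103 and Gm26668 most.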
